A study of Mus musculus with 93 samples.

Results

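The clustered protocadherins are cell adhesion genes that lie side by side in the alpha, beta and gamma subclusters on chromosome 18. Members were taken as the genes whose GENCODE M21 symbol starts with Pcdha, Pcdhb or Pcdhg on that chromosome, where no fewer than 10% of the 93 mice reached 10 counts. Of 58 annotated genes, 57 passed, 14 alpha, 22 beta and 21 gamma genes, out of 23702 genes that passed the same filter of 47643 in all. In GRCm38 the alpha subcluster spans 36930184 to 37187661, the beta subcluster 37264938 to 37524479 and the gamma subcluster 37661793 to 37841873, and all members lie on the plus strand.

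The left brain hemisphere of each mouse, aged 8 months, gave 1 RNA library. B6 stands for the classical laboratory strain C57BL/6J, while CAST (CAST/EiJ), PWK (PWK/PhJ) and WSB (WSB/EiJ) descend from mice caught in the wild. There were 12 WT mice each of B6, CAST and WSB and 11 of PWK, and 12 *APP/PS1* mice each of CAST, WSB and PWK and 10 of B6, of both sexes. Between 53969802 and 106016200 reads per mouse were assigned to genes, with a median of 66559575. The mean share of reads set apart for lack of a unique alignment was 9.89% in B6 and 9.69% in WSB. It was 12% in CAST and 11.9% in PWK, and every mouse of CAST and PWK was above every mouse of B6 and WSB. The part of this in the strain differences was not tested. *APP/PS1* mice carry the transgenes of that name, moved from B6 into the wild-derived strains by repeated backcrossing, and the WT mice were their littermates without the transgenes, so DNA from B6 around the insertion can differ between the genotypes in the wild-derived strains. The labels were checked on *App*, whose level was between 1363 and 1656 CPM (counts per 1000000, scaled by TMM) over all WT mice and between 2751 and 3516 CPM over all *APP/PS1* mice, with every *APP/PS1* mouse above every WT mouse.

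Clustered protocadherins are single-pass membrane proteins that bind copies of themselves on neighboring cells and help neurons tell their own branches from those of others. In the alpha and gamma subclusters each variable exon has its own promoter and is spliced to constant exons shared by the subcluster, whereas each beta gene is a single exon. Most isoforms are chosen by a stochastic choice of promoters that involves CTCF, cohesin and DNA methylation, but the C-type genes at the ends of the alpha and gamma subclusters are expressed more uniformly, and *Pcdhac2* is the main isoform of serotonergic neurons.

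The files set reads over several genes apart as ambiguous, so counts for a gene were taken to stand on the exon bases it does not share in GENCODE M21. The overlap mode of the counting is not given in the sources used here, and an annotation release is named only for other estimates of the authors, so levels per kilobase hold only as far as the release used has the same exons. For alpha and gamma genes the bases so taken are mainly those of the variable exon. That the constant exons contribute nothing is assumed here and was not tested. *Pcdhga10*, the only member that failed the filter, had a count of 0 in all 93 mice, and all of its exon bases are shared with other genes or with the antisense *Gm26672*. The members nearest the filter on the inside were a gene annotated as *Pcdha11* (ENSMUSG00000102206), with 10 counts or more in 31 mice, and *Pcdha4*, in 42 mice. *Pcdha4* has 404 bases of its own, as most of its variable exon also belongs to the read-through model *Gm42416*, which had a count of 0 in every mouse. A second gene annotated as *Pcdha11* (ENSMUSG00000007440) passed the filter in all 93 mice. The strand setting is not given either, though a count of 0 for *Pcdhga10* is what counting without strand would give, as it has 2613 bases of its own with strand and 0 without. Without strand, antisense genes would take bases from *Pcdha12*, *Pcdhb12*, *Pcdhgb7*, *Pcdhga11* and *Pcdhgc3*, among others, and their levels are uncertain for that reason. Members also resemble each other in sequence. Of the 100-base windows over a member's own bases, up to 9.8% were found exactly in another gene (*Pcdhgb2*), with 0 for the 5 C-type genes. The share was also 0 for some variable members, among them *Pcdhb5*, *Pcdhb14*, *Pcdhb22*, *Pcdhga3*, *Pcdhga11* and *Pcdhgb7*. In the variable members that have such windows, a difference may in part be reads of a close relative. Only exact windows in the reference sequence were counted, without the variants of CAST, WSB and PWK. A share of 0 therefore does not show that a member shares no window with a relative in those strains.

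Per kilobase of its own bases, the C-type genes *Pcdhgc3*, *Pcdhgc5* and *Pcdhac2* were the most abundant members. Median levels over the 47 WT mice were 20.7 CPM per kb for *Pcdhgc3*, 17.0 for *Pcdhgc5* and 12.9 for *Pcdhac2*. *Pcdhga11*, which is not C-type, came next with 7.85, before the C-type *Pcdhgc4* with 6.83, while the C-type *Pcdhac1* had 1.17 and was among the low members. On the length that counts antisense-covered bases as own, *Pcdhgc3* came to 11.1 CPM per kb and *Pcdhga11* to 3.74, and *Pcdhgc5* was first. The median over members was 1.47 CPM per kb for the 12 other alpha genes, 2.03 for the 22 beta genes and 3.90 for the 18 other gamma genes. The lowest of the 57 was *Pcdha11* (ENSMUSG00000102206) with 0.0732 CPM per kb, followed by *Pcdhb1* with 0.0915 and *Pcdhgb8* with 0.126.

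Differences between strains were tested in WT mice with edgeR's quasi-likelihood test, averaged over the sexes, and p-values were adjusted by the Benjamini-Hochberg method over all 23702 genes, with a threshold of 0.05. Of the 57 members, 54 differed among the 4 strains, 11 of 14 alpha, 22 of 22 beta and 21 of 21 gamma genes, where 84.5% of all genes tested differed. The 3 members that did not were *Pcdha4* and both *Pcdha11* genes, which are named here after their values were seen. In tissue samples, fewer cells of a type and less RNA per cell cannot be told apart. The labels give no preparation batch. The library numbers of B6 lie apart from those of the other strains, so that if they follow the preparation, strain and library batch cannot be told apart in any comparison with B6.

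Compared with B6, 46 of the 57 members differed in CAST (20 higher, 26 lower), where 61.4% of all genes tested differed, 30.3% higher and 31.1% lower. In WSB 44 members differed (21 higher, 23 lower), against 47.5% of all genes, 23.2% higher and 24.3% lower. In PWK 46 members differed (23 higher, 23 lower), against 59.3% of all genes, 28.8% higher and 30.4% lower. The 3 comparisons share the B6 mice. By subcluster, 10 alpha, 19 beta and 17 gamma genes differed in CAST, 9, 17 and 18 in WSB, and 9, 17 and 20 in PWK. Members of each subcluster went both ways in every strain.

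Among the wild-derived strains, the library numbers fall into 3 blocks that each hold mice of all 3 strains, taken here as library pools although no label names them so. The paper states, however, that the strains were tested one after the other and that mice went from testing straight to harvest. Strain and time of testing and harvest thus cannot be told apart in any pair of strains, with or without B6. CAST and PWK differed in 37 members (21 higher in CAST, 16 lower), against 54.8% of all genes, 27.8% higher and 27.1% lower. WSB and PWK differed in 45 (23 higher in WSB, 22 lower), against 54.5% of all genes, 27.5% higher and 27.0% lower. CAST and WSB differed in 42 (19 higher in CAST, 23 lower), against 54.2% of all genes, 27.1% higher and 27.2% lower. For the named members that differed, the log2 difference was also taken within each pool. It had the sign of the pooled value in 45 of 45 values for WSB and PWK and 51 of 51 for CAST and WSB. For CAST and PWK it did in 44 of 45, where the exception was *Pcdha1*. Members were named in part for a small p, and each pool is part of the pooled value. The agreement in sign was thus largely fixed beforehand and says nothing about pool effects. Sizes varied between CAST and PWK, as for *Pcdha12* (-0.04 in pool 1, -0.33 pooled) and *Pcdhgc4* (-0.24 in pool 3, -0.10 pooled).

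The sizes of these differences varied between subclusters. For each member the largest log2 difference between any 2 WT strains was taken, whatever its sign. Its median was 1.06 for the 12 alpha genes that are not C-type, 0.86 for the 18 such gamma genes, 0.78 for the 22 beta genes and 0.21 for the 5 C-type genes, against 0.54 over all genes tested. A difference of at least 1 was found for 21 of the 57 members, or 36.8%, and for 30.8% of all genes tested. These medians are descriptions, and the difference between the subclusters was not tested.

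**Figure D1:**
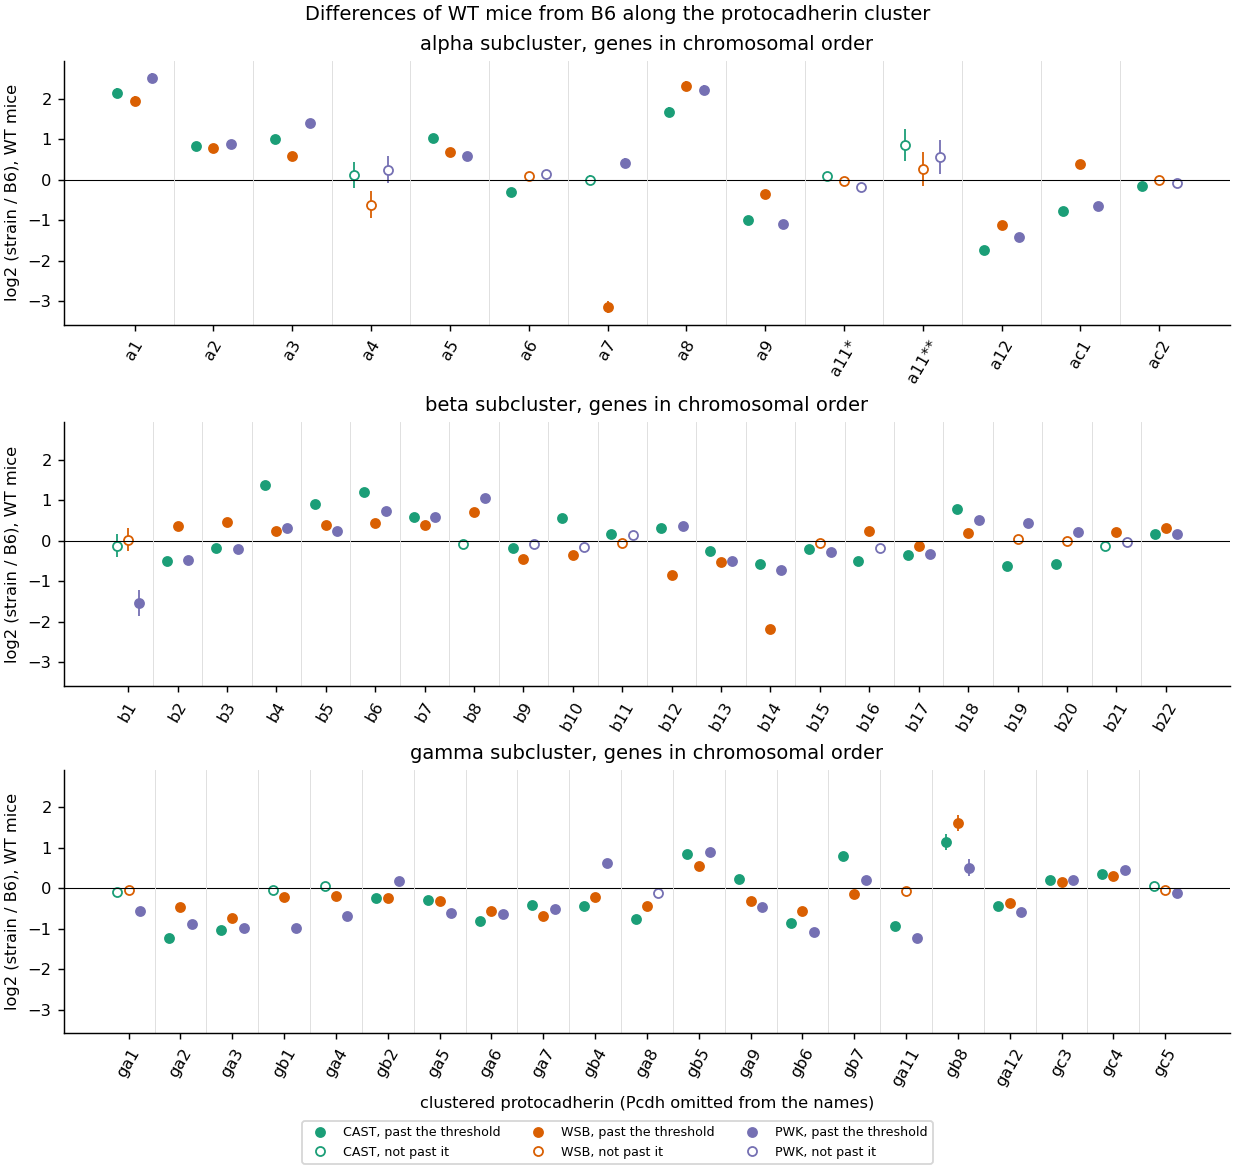
Log2 difference of WT mice of CAST, WSB and PWK from WT B6 mice for each of the 57 members (y axis, vertical lines are ± 1 standard error), in chromosomal order within the alpha, beta and gamma subclusters. Filled points passed the threshold of 0.05 on the adjusted p of edgeR, a11* is ENSMUSG00000007440 and a11** is ENSMUSG00000102206. The lowest value is -3.14 for *Pcdha7* in WSB and the highest 2.51 for *Pcdha1* in PWK.

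The largest differences were in the alpha subcluster. *Pcdha7* was low in WSB, with a lowest, median and highest level of 0.085, 0.400 and 0.540 CPM in the 12 WT mice, compared with 2.16, 3.08 and 4.15 CPM in B6, 2.72, 3.13 and 3.42 CPM in CAST and 2.98, 4.27 and 4.68 CPM in PWK. All WSB mice were below all mice of the other strains, which overlapped each other. The level in WSB was 8.82-fold lower than in B6 (log2 difference -3.14 ± 0.14 (SE), edgeR adjusted p = 2.01e-34) and 11.8-fold lower than in PWK (-3.57 ± 0.15, adjusted p = 2.18e-38). CAST and B6 differed by 0.00 ± 0.12, which did not pass the threshold.

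*Pcdha1*, the first gene of the cluster, was low in B6. Its lowest, median and highest levels in WT mice were 0.910, 1.46 and 2.67 CPM in B6, 5.55, 6.95 and 7.53 CPM in CAST, 4.86, 5.85 and 7.26 CPM in WSB and 4.48, 9.59 and 12.3 CPM in PWK. Every mouse of the other strains was above every B6 mouse. The log2 difference from B6 was 2.14 ± 0.12 in CAST (edgeR adjusted p = 2.22e-28), 1.94 ± 0.12 in WSB (2.67e-25) and 2.51 ± 0.12 in PWK (1.54e-32). The spread in PWK came from 2 WT females, replicates 2 and 4, with 4.84 and 4.48 CPM, while the other 9 WT mice had 8.09 CPM or more. CAST was below PWK by a log2 difference of -0.37 ± 0.11 (edgeR adjusted p = 0.00355), but within library pool 1, with 3 CAST and 2 PWK mice, the difference was 0.00.

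*Pcdha8* was also lowest in B6, but highest in WSB by the median. Levels were 0.555, 1.11 and 2.07 CPM in B6 (lowest, median and highest), 3.00, 3.58 and 4.74 CPM in CAST, 4.18, 5.79 and 8.33 CPM in WSB and 4.37, 5.31 and 6.48 CPM in PWK. No B6 mouse overlapped the other strains, and the fold over B6 was 3.18 in CAST, 4.94 in WSB and 4.67 in PWK (log2 difference 2.31 ± 0.12 in WSB, edgeR adjusted p = 8.39e-30). *Pcdha3* was also lowest in B6 (median 3.84 CPM) and highest in PWK (10.6 CPM), with CAST at 7.81 and WSB at 5.76 CPM. PWK was above B6 by a log2 difference of 1.41 ± 0.07 (edgeR adjusted p = 3e-31). *Pcdha5*, the alpha gene with the highest mean CPM in WT mice beside *Pcdhac2*, had medians of 4.91 CPM (B6), 9.76 CPM (CAST), 7.67 CPM (WSB) and 7.35 CPM (PWK), and no B6 mouse reached the range of the other strains.

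*Pcdha12*, which lies last before the C-type genes, had the opposite pattern. Its lowest, median and highest levels were 5.59, 6.78 and 8.32 CPM in B6, 1.47, 2.06 and 2.49 CPM in CAST, 2.23, 3.07 and 3.63 CPM in WSB and 1.94, 2.51 and 3.39 CPM in PWK. Every B6 mouse was above every other mouse, and the 3 wild-derived strains overlapped. The log2 difference from B6 was -1.74 ± 0.09 in CAST (edgeR adjusted p = 1.13e-31), -1.13 ± 0.09 in WSB (1.77e-20) and -1.41 ± 0.09 in PWK (1.9e-25). Thus the make-up of the alpha subcluster changed with strain. Of the summed mean level of the 12 alpha genes that are not C-type, *Pcdha12* had the largest share in B6, 18.7%, *Pcdha5* in CAST and WSB, 20.5% and 17.3%, and *Pcdha3* in PWK, 19.4%.

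**Figure D2:**
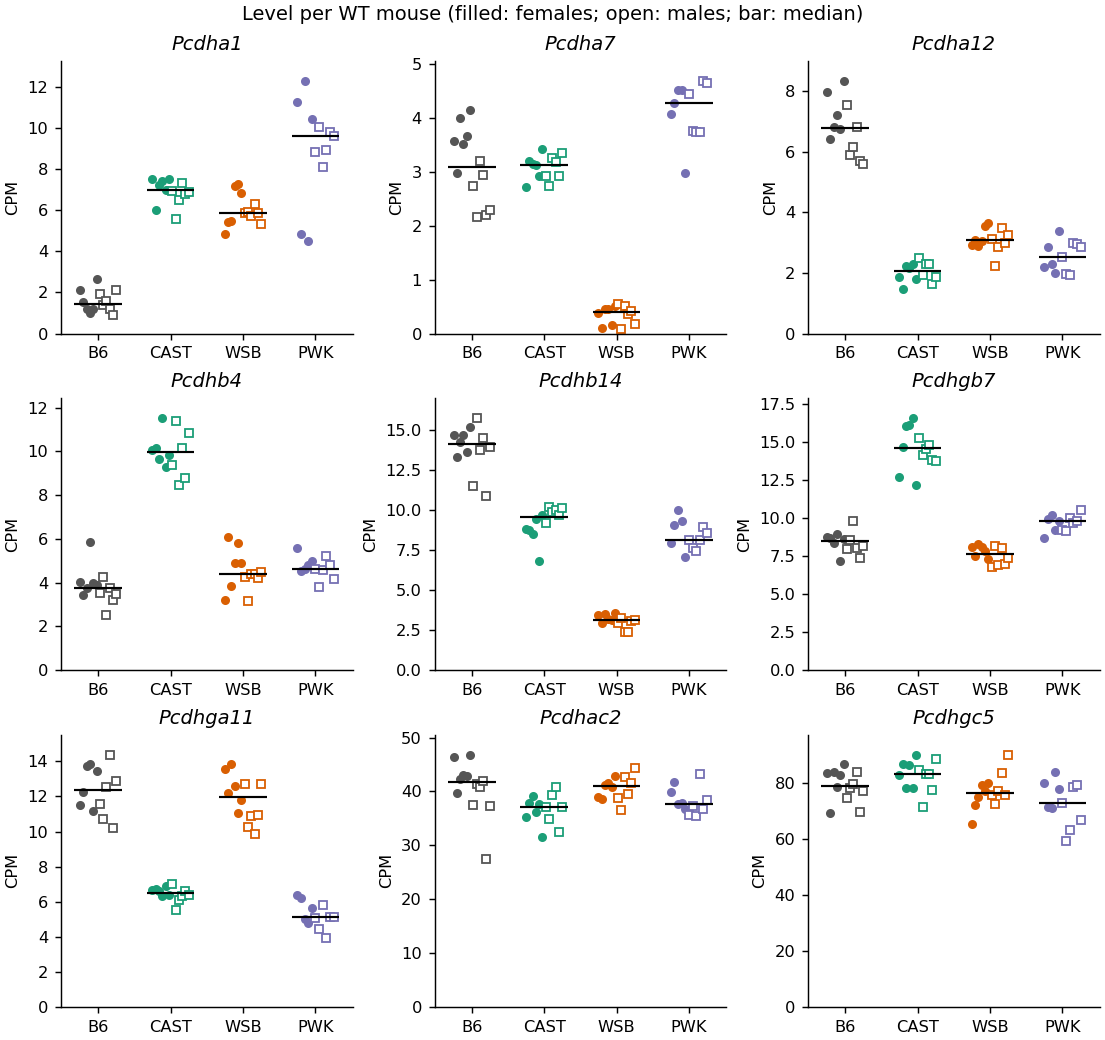
Level in CPM (y axis, from 0) of 9 named members in each WT mouse by strain (12 mice of B6, CAST and WSB, 11 of PWK). Filled circles are females, open squares males, and bars are medians. *Pcdha7* and *Pcdhb14* are lowest in WSB, *Pcdha1* is lowest and *Pcdha12* highest in B6, *Pcdhb4* and *Pcdhgb7* are highest in CAST, *Pcdhga11* is lower in CAST and PWK than in B6 and WSB, and the C-type genes *Pcdhac2* and *Pcdhgc5* overlap between all strains.

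In the beta subcluster, *Pcdhb14* had the smallest p of all members. Its levels (lowest, median and highest) were 10.9, 14.1 and 15.8 CPM in B6, 6.82, 9.57 and 10.2 CPM in CAST, 2.38, 3.14 and 3.60 CPM in WSB and 7.07, 8.15 and 10.0 CPM in PWK. All WSB mice were below, and all B6 mice above, the mice of the other strains, while CAST and PWK overlapped. The level in WSB was 4.48-fold lower than in B6 (log2 difference -2.16 ± 0.07, edgeR adjusted p = 1.31e-45), and CAST and PWK differed by 0.13 ± 0.07, which did not pass the threshold (edgeR adjusted p = 0.0807).

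*Pcdhb4* and *Pcdhb5*, which are neighbors, were highest in CAST. The lowest, median and highest levels of *Pcdhb4* were 2.54, 3.74 and 5.86 CPM in B6, 8.46, 9.95 and 11.5 CPM in CAST, 3.16, 4.40 and 6.08 CPM in WSB and 3.83, 4.63 and 5.59 CPM in PWK, so that CAST stood apart and the others overlapped. CAST was above B6 by a log2 difference of 1.39 ± 0.09 (edgeR adjusted p = 7.91e-25). Smaller differences from B6 of 0.23 ± 0.09 in WSB and 0.31 ± 0.09 in PWK passed the threshold (edgeR adjusted p = 0.0288 and 0.00259). That in WSB did not pass without 3 B6 mice with low beta sums (edgeR adjusted p = 0.0555), an alternative chosen after seeing the data. The log2 difference in that fit, 0.22 ± 0.10, was about as large. With library pool as a covariate both fell, to 0.16 ± 0.09 in WSB and 0.17 ± 0.10 in PWK, and neither passed (adjusted p = 0.136 and 0.146), but all B6 libraries lie outside the inferred pools, so that this covariate cannot part strain from batch. The median of *Pcdhb5* was 12.3 CPM in CAST, compared with 6.77 in B6, 8.78 in WSB and 8.14 in PWK, and all CAST mice were above all others (CAST minus B6 0.91 ± 0.06, edgeR adjusted p = 8.43e-26).

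*Pcdhb8* and *Pcdhb19* were highest in PWK. For *Pcdhb8* the medians were 5.67 (B6), 5.81 (CAST), 9.77 (WSB) and 13.0 CPM (PWK), with a log2 difference between PWK and B6 of 1.07 ± 0.08 (edgeR adjusted p = 7.59e-21). For *Pcdhb19* they were 15.3, 9.86, 15.4 and 20.6 CPM in the same order, and CAST was below PWK by -1.05 ± 0.07 (edgeR adjusted p = 2.42e-23). *Pcdhb22*, at the end of the subcluster and the beta gene with the highest mean CPM in WT mice, varied less, with medians of 14.9 (B6), 17.0 (CAST), 19.2 (WSB) and 17.0 CPM (PWK). Its mice overlapped between every pair of strains, and the difference between CAST and PWK, -0.01 ± 0.05, did not pass the threshold.

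Of the gamma genes that are not C-type, many were lower than in B6, 11 of 18 in CAST, 14 in WSB and 12 in PWK, against 4, 2 and 5 that were higher. Of all genes tested 31.1%, 24.3% and 30.4% were lower and 30.3%, 23.2% and 28.8% higher in the same order. *Pcdhga11* had the smallest p. Its lowest, median and highest levels were 10.2, 12.4 and 14.4 CPM in B6, 5.50, 6.49 and 7.03 CPM in CAST, 9.86, 12.0 and 13.8 CPM in WSB and 3.95, 5.13 and 6.39 CPM in PWK. B6 and WSB overlapped, and both lay above all CAST and PWK mice. The log2 difference from B6 was -0.93 ± 0.06 in CAST (edgeR adjusted p = 3.94e-26) and -1.23 ± 0.06 in PWK (8.38e-33), whereas WSB differed by -0.06 ± 0.06 and did not pass the threshold.

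*Pcdhga3* and *Pcdhgb6* were highest in B6. *Pcdhga3* had medians of 18.0 CPM (B6), 8.91 CPM (CAST), 10.4 CPM (WSB) and 8.90 CPM (PWK), and *Pcdhgb6* of 22.0, 12.7, 15.7 and 10.5 CPM in the same order. For *Pcdhga3* every B6 mouse was above every mouse of the wild-derived strains, and the log2 difference of CAST from B6 was -1.03 ± 0.06 (edgeR adjusted p = 2.83e-26). *Pcdhgb6* in PWK differed from B6 by -1.08 ± 0.06 (edgeR adjusted p = 9.39e-30), with no overlap, while WSB and B6 overlapped by a narrow margin (highest WSB mouse 17.0, lowest B6 mouse 16.9 CPM). *Pcdhgb7* went the other way in CAST, with 12.2, 14.6 and 16.6 CPM (lowest, median and highest) against 7.16, 8.48 and 9.85 CPM in B6, 6.77, 7.67 and 8.28 CPM in WSB and 8.67, 9.79 and 10.6 CPM in PWK. All CAST mice were above all others, by a log2 difference of 0.80 ± 0.05 from B6 (edgeR adjusted p = 2.07e-25).

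The 5 C-type genes differed among the strains too, but by less, except *Pcdhac1*. Its lowest, median and highest levels were 2.90, 3.81 and 4.35 CPM in B6, 1.61, 2.09 and 3.00 CPM in CAST, 3.92, 5.12 and 5.93 CPM in WSB and 1.57, 2.41 and 2.86 CPM in PWK. WSB lay above all CAST and PWK mice (CAST minus WSB -1.17 ± 0.09, edgeR adjusted p = 1.97e-20), and CAST and PWK overlapped. *Pcdhac2* had medians of 41.7 (B6), 37.1 (CAST), 41.1 (WSB) and 37.7 CPM (PWK), with overlap between every pair of strains, and its largest log2 difference, between CAST and WSB, was -0.15 ± 0.04 (edgeR adjusted p = 0.00178).

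The gamma C-type genes also differed by less than *Pcdhac1*, and among them *Pcdhgc4* differed most. *Pcdhgc3* had a median of 34.3 CPM in B6 and of 39.5, 37.2 and 39.1 CPM in CAST, WSB and PWK, and the strains overlapped (CAST minus B6 0.21 ± 0.04, edgeR adjusted p = 1.73e-06). *Pcdhgc4* was lowest in B6, with 19.1 CPM, compared with 24.3, 23.3 and 26.1 CPM in CAST, WSB and PWK, and no WSB or PWK mouse overlapped B6 (PWK minus B6 0.46 ± 0.04, edgeR adjusted p = 2.27e-16). *Pcdhgc5*, the last gene of the cluster, had 79.1 (B6), 83.3 (CAST), 76.4 (WSB) and 72.9 CPM (PWK). All strains overlapped for it, and PWK differed from B6 by -0.11 ± 0.05 (edgeR adjusted p = 0.0415). This was past the threshold no longer with DESeq2's size factors (0.051), without a count filter (0.0767), or without PWK WT female 2 (0.0865) or 3 (0.0899). Nor did it pass with the pool covariate (0.0835), which has the same limit. The log2 difference stayed between -0.11 and -0.09 in all these fits.

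Summed over members, the levels of the whole cluster were close. The median sum per WT mouse was 624 (B6), 594 (CAST), 593 (WSB) and 596 CPM (PWK). Alpha genes that are not C-type summed to 27.7, 36.0 and 45.7 CPM in B6 (lowest, median and highest), 42.7, 48.4 and 51.8 CPM in CAST, 37.4, 44.9 and 48.7 CPM in WSB and 45.5, 55.3 and 58.9 CPM in PWK. Gamma genes that are not C-type summed to a median of 220 (B6), 170 (CAST), 169 (WSB) and 157 CPM (PWK). Only the B6 WT male 5, with 178 CPM, was within the range of the other strains. Beta genes summed to 190, 192, 191 and 199 CPM, and C-type genes to 178, 187, 186 and 179 CPM, in the same order of strains. Thus the median of B6 was the lowest for the variable alpha genes, where its mice overlapped those of the other strains, and the highest for the variable gamma genes, while beta and C-type sums overlapped. No test was made of a sum.

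**Figure D3:**
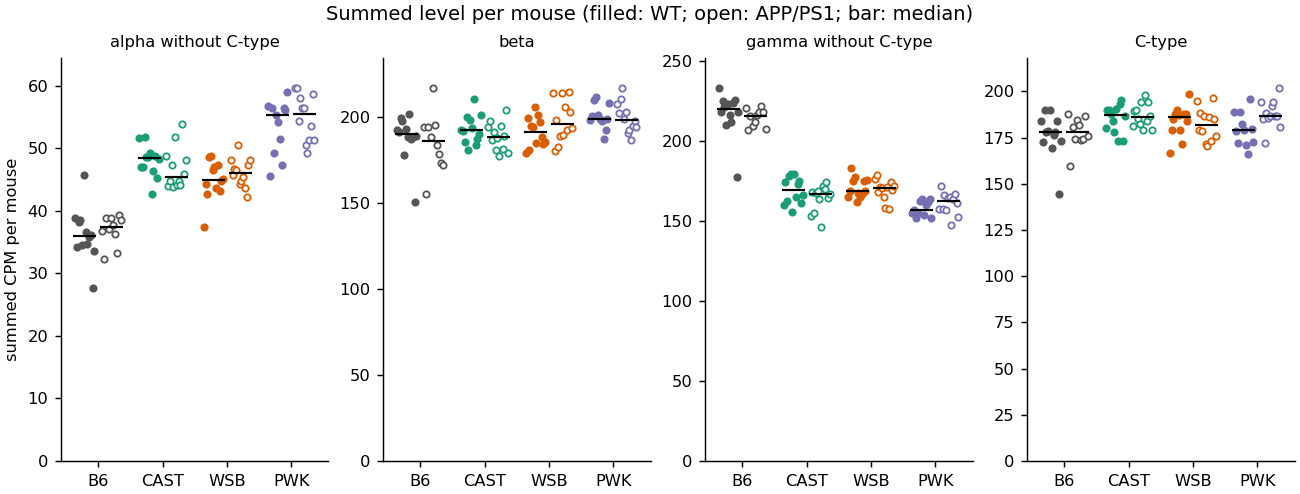
Summed level in CPM per mouse (y axis, from 0) of the alpha genes without the C-type, the beta genes, the gamma genes without the C-type and the 5 C-type genes, by strain. Filled circles are WT and open circles *APP/PS1* mice, and bars are medians. The gamma sums of B6 lie above those of the other strains except in 1 WT mouse, and the beta and C-type sums overlap between all strains.

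Markers of cell types differed between strains as well. The summed level of 6 neuronal markers, of which *Snap25* was the most abundant, had medians in WT mice of 5442 (B6), 5267 (CAST), 5476 (WSB) and 5581 CPM (PWK). The single neuronal markers are not given here, and close sums do not show that they were alike. For 4 markers of oligodendrocytes, led by *Mbp*, the medians were 5086, 3390, 3447 and 3400 CPM in the same order, and 4 of 4 were lower in each wild-derived strain than in B6. For 3 markers of serotonergic neurons, led by *Tph2*, they were 6.67, 12.4, 16.3 and 16.7 CPM, with 1, 2 and 2 of 3 higher than in B6 in CAST, WSB and PWK, but single WT mice ranged from 0.933 to 24.7 CPM. For 4 markers of cerebellar neurons, led by *Cbln3*, they were 552, 610, 645 and 799 CPM. Of these 4, 2, 2 and 3 were higher and 1, 0 and 1 lower than in B6 in CAST, WSB and PWK.

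Of the remaining lists, 5 astrocyte markers, led by *Slc1a3*, summed to medians of 1256, 1368, 1198 and 1219 CPM. Compared with B6, *Aldh1l1* was lower and *Slc1a3* higher in each wild-derived strain. *Gja1* was higher in CAST and PWK but lower in WSB, *Gfap* higher in CAST and lower in WSB, and *Aqp4* lower in PWK. The 2 markers of oligodendrocyte precursors, led by *Pdgfra*, summed to 83.0, 80.6, 81.0 and 73.5 CPM. In WSB *Pdgfra* was higher (0.11 ± 0.04) and *Cspg4* lower (-0.22 ± 0.04) than in B6. Both were lower in PWK, and neither passed the threshold in CAST. The 4 markers of microglia, led by *Cx3cr1*, summed to 82.0, 73.7, 77.1 and 73.3 CPM. Of these 4, 1, 2 and 2 were higher and 3, 2 and 1 lower than in B6 in CAST, WSB and PWK, with *Cx3cr1* lower in each. Endothelial markers (3, led by *Flt1*) summed to 141, 111, 119 and 120 CPM. Of these, *Cldn5* and *Pecam1* were lower than in B6 in each wild-derived strain, and *Flt1* in CAST and WSB. Endothelial markers were followed by choroid plexus markers (4, led by *Ttr*), which summed to 462, 426, 438 and 350 CPM. Most of the latter sum was *Ttr*, which did not pass the threshold against B6 in any strain, whereas 3, 2 and 3 of the 4 choroid plexus markers were lower than in B6 in CAST, WSB and PWK, by most for *Kcne2* in PWK (-1.97 ± 0.23, edgeR adjusted p = 4.22e-12). None of the markers had a median of 0. Their part in the strain differences of the protocadherins was not tested.

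Genes that act on the cluster or with its proteins were taken from lists. Of 17 regulators of promoter choice and chromatin, among them *Ctcf*, the cohesin genes and DNA methyltransferases, 13 differed between CAST and B6 (9 higher, 4 lower), 11 between WSB and B6 (8 and 3) and 8 between PWK and B6 (6 and 2). Between CAST and PWK 8 differed, between WSB and PWK 5, between CAST and WSB 6, and over the 4 strains 16. Of all genes tested 61.4%, 47.5% and 59.3% differed from B6 in CAST, WSB and PWK, 54.8%, 54.5% and 54.2% between the wild-derived pairs in the order given, and 84.5% over the 4 strains, and these shares are the background of every list of genes given here. The largest difference was that of *Dnmt3b*, a de novo DNA methyltransferase, with a mean of 2.74 CPM in CAST and 1.36 CPM in B6 (log2 difference 1.01 ± 0.11, edgeR adjusted p = 4.03e-14). The median size over the 17 genes was 0.11 for CAST and B6, against 0.27 over all genes tested.

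Of 12 non-clustered protocadherins, of which *Pcdh1* and *Pcdh12* lie on chromosome 18 beyond the gamma subcluster and the others on other chromosomes, 8, 6 and 6 differed from B6 in CAST, WSB and PWK, 6, 6 and 2 differed between CAST and PWK, WSB and PWK, and CAST and WSB, and 10 over the 4 strains. *Pcdh11x* was higher in WSB than in B6 (0.66 ± 0.07, edgeR adjusted p = 1.31e-14). Of 13 intracellular partners, such as the kinases *Ptk2* and *Ptk2b* and the genes of the WAVE complex, 6, 9 and 11 differed from B6, 7, 6 and 6 between the wild-derived pairs in the same order, and 12 over the 4 strains. Of 5 genes for shedding by *Adam10* and for gamma-secretase subunits, which cut protocadherins at the membrane, the counts were 3, 4 and 4, then 3, 3 and 2, and 4.

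Genes beside or between the subclusters served as neighbors on the chromosome. Of 16 such genes 11, 9 and 13 differed from B6 in CAST, WSB and PWK, 10, 11 and 9 between the wild-derived pairs, and 15 over the 4 strains. *Slc25a2*, between the beta and gamma subclusters, had a lowest, median and highest level of 0, 0 and 0.206 CPM in PWK and of 0.133, 0.256 and 0.489 CPM in B6. Its fitted log2 difference, -3.32 ± 0.41 (edgeR adjusted p = 2.38e-11), rests on few counts in PWK and is larger in size than the ratio of the mean levels, 0.0437 and 0.273 CPM, gives. *Fchsd1*, beyond the gamma subcluster, was higher in PWK than in B6 (1.10 ± 0.06, adjusted p = 7.64e-31). Within the cluster 20 other gene models are annotated, of which 11 passed the filter, and 6, 5 and 7 differed from B6, 6, 3 and 5 between the wild-derived pairs, and 8 over the 4 strains. Among them *Gm36858*, a pseudogene that lies between *Pcdha7* and *Pcdha8*, had a mean of 0.203 CPM in B6 and 2.31 CPM in CAST (3.52 ± 0.16, edgeR adjusted p = 7.58e-36).

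The response to the transgenes was compared within each strain. According to the paper, PWK *APP/PS1* mice were parted from their WT littermates and housed singly early on because of aggression. Genotype and housing thus cannot be told apart in any comparison of genotypes in PWK, and PWK enters the average over the strains. In B6, edgeR called 0 of 57 members, with 0 at an unadjusted p under 0.05, and DESeq2 called 0, where 0.224% of all genes tested passed. In CAST 0 passed by edgeR (2 at an unadjusted p under 0.05) and 0 by DESeq2, against 0.658% of all genes. In WSB 0 passed by edgeR (4 at an unadjusted p under 0.05) and 0 by DESeq2, against 0.375% of all genes. In PWK edgeR (4 at an unadjusted p under 0.05) and DESeq2 each called 1 member, *Pcdhgc5*, against 2.04% of all genes. Averaged over the strains edgeR called 0 (1 at an unadjusted p under 0.05) and DESeq2 0, against 2.27% of all genes. These shares are at the adjusted threshold. At an unadjusted p under 0.05, the genes of all 23702 numbered 1330 in B6, 1848 in CAST, 1826 in WSB, 2836 in PWK and 2736 averaged over the strains.

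*Pcdhgc5* in PWK had a lowest, median and highest level of 59.3, 72.9 and 84.04 CPM in 11 WT mice and of 68.4, 83.5 and 93.3 CPM in 12 *APP/PS1* mice. The genotypes overlapped, with 11 of 12 *APP/PS1* mice above the WT median. The log2 difference was 0.16 ± 0.05 (95% interval 0.07 to 0.26, edgeR adjusted p = 0.0392). The call was lost without PWK WT female 2 (adjusted p = 0.1), 3 (0.106) or 5 (0.0588), without a count filter (0.0656) and in a model of the PWK mice alone (0.0843), while the log2 difference stayed between 0.15 and 0.17 in these 5 fits. In the other strains the difference was 0.02 ± 0.05 in B6, 0.03 ± 0.05 in CAST and -0.03 ± 0.05 in WSB, and a difference in response between the 4 strains did not pass the threshold for this gene (edgeR adjusted p = 0.502). The 4 strains' responses differed for 0 of the 57 members by edgeR (3 at an unadjusted p under 0.05) and 0 by DESeq2, against 0.473% of all genes at the adjusted threshold and 2045 genes at the unadjusted one.

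The members with the smallest p in the other strains did not pass the threshold. In B6 these were *Pcdhga3*, with a log2 difference of -0.13 ± 0.07, and the scarce *Pcdhb1*, -0.58 ± 0.30 (edgeR adjusted p = 0.92 and 0.932). In CAST they were *Pcdhb17*, -0.10 ± 0.05, and *Pcdha11* (ENSMUSG00000007440), -0.19 ± 0.09 (edgeR adjusted p = 0.594 and 0.622). In WSB *Pcdhb12* had 1.10, 1.52 and 2.01 CPM in WT mice (lowest, median and highest) and 1.52, 1.81 and 2.95 CPM in *APP/PS1* mice. Although 11 of 12 *APP/PS1* mice were above the WT median, the ranges overlapped and its difference of 0.34 ± 0.10 did not pass the threshold (edgeR adjusted p = 0.0959), nor did that of *Pcdha9*, 0.25 ± 0.10 (0.448). Averaged over the strains, *Pcdha1* had 0.13 ± 0.06 (95% interval 0.01 to 0.25, edgeR adjusted p = 0.364) and *Pcdhgc5* 0.04 ± 0.02 (0.460).

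**Figure D4:**
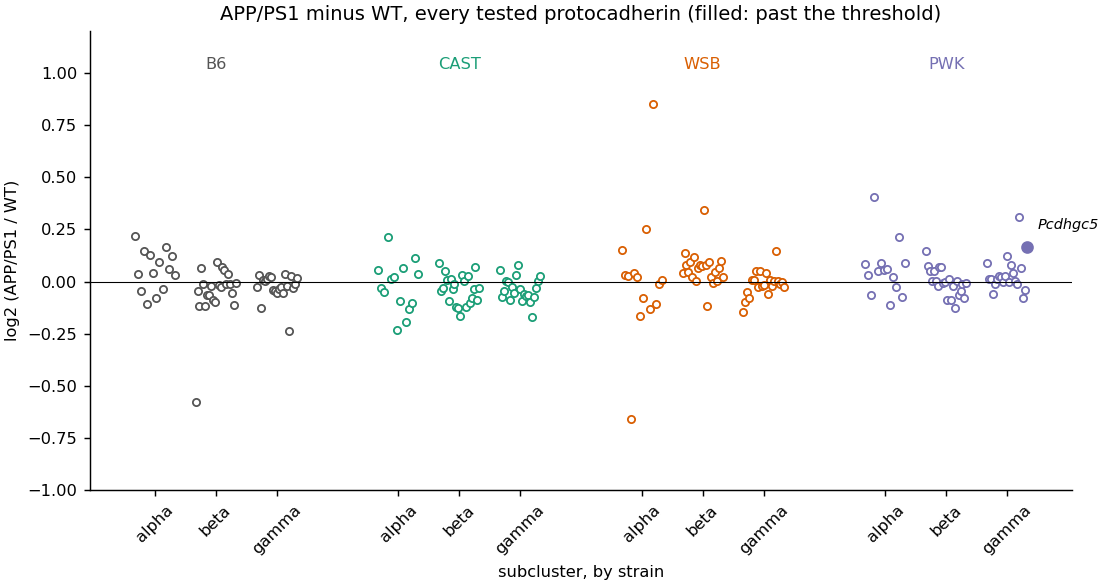
Log2 difference of *APP/PS1* from WT mice (y axis) for each of the 57 members, by strain and subcluster. The filled point is the 1 member past the threshold of 0.05 on the adjusted p of edgeR, *Pcdhgc5* in PWK at 0.16, and the open points did not pass it.

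The lists were counted for the response too, where 0.224% to 2.27% of all genes passed. By edgeR 0 of 17 regulators, 0 of 12 non-clustered protocadherins, 0 of 5 genes for shedding and gamma-secretase and 0 of the 11 gene models inside the cluster passed in any strain or averaged over them. At an unadjusted p under 0.05 the averaged response had 3, 2 and 1 of the first 3 lists and 2736 of all 23702 genes, and the lists were not counted with DESeq2. Of the 13 intracellular partners, *Wasf1* (0.14 ± 0.04, edgeR adjusted p = 0.0118) and *Ptk2b* (0.16 ± 0.04, 0.0237) were higher in *APP/PS1* mice of PWK. Of the 16 neighbors, *Cd14*, a receptor of innate immune cells, was higher in *APP/PS1* mice averaged over the strains (0.24 ± 0.05, edgeR adjusted p = 0.000299). Markers of microglia summed to medians of 87.5, 86.8, 84.4 and 86.0 CPM in *APP/PS1* mice of B6, CAST, WSB and PWK. Averaged over the strains 3 of 4 were higher, as was 1 of 5 astrocyte markers, with 0 of 6 neuronal markers by edgeR. The astrocyte marker was *Gfap* (0.43 ± 0.04). The averaged differences of *Slc1a3* (-0.05 ± 0.02), *Aldh1l1* (-0.03 ± 0.02) and *Gja1* (-0.02 ± 0.02) were negative, and that of *Aqp4* was 0.00 ± 0.03. None of these passed, and *Slc1a3* had an unadjusted p under 0.05. In PWK, 2 of 4 microglia markers (*Aif1* and *Cx3cr1*, the latter with the same limit) and 1 of 5 astrocyte markers were higher. The astrocyte marker was again *Gfap* (0.36 ± 0.09, edgeR adjusted p = 0.0115). The log2 differences in PWK of *Aqp4* (-0.14 ± 0.06), *Slc1a3* (-0.07 ± 0.03), *Aldh1l1* (-0.08 ± 0.04) and *Gja1* (-0.05 ± 0.03) were negative. None of these passed the threshold, and *Aqp4* and *Slc1a3* had an unadjusted p under 0.05. The 4 cerebellar markers were lower at an unadjusted p under 0.05, with 0 called by edgeR, and their median sum was 799 CPM in WT and 712 CPM in *APP/PS1* mice. Neuronal markers summed to medians of 5581 and 5763 CPM and oligodendrocyte markers to 3400 and 3151 CPM, with 0 called by edgeR in either list and 2 in each at an unadjusted p under 0.05. Their part in the response of *Pcdhgc5* was not tested.

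Females and males were compared over all strains and genotypes. Of the 57 members 9 differed, 6 higher and 3 lower in females, where 1.77% of all genes tested differed, 1.03% higher and 0.738% lower. They were 2 alpha, 5 beta and 2 gamma genes. Their log2 differences lay between -0.18 and 0.26. *Pcdhb6* had the smallest p, with medians in females and males of 5.47 and 4.47 CPM in B6, 12.4 and 10.8 CPM in CAST, 6.99 and 6.98 CPM in WSB and 9.31 and 8.14 CPM in PWK. The sexes overlapped in every strain, and the log2 difference was 0.19 ± 0.04 (45 females, 48 males, edgeR adjusted p = 0.00107).

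*Pcdha8* was higher in females by 0.26 ± 0.06 (edgeR adjusted p = 0.00794), with the median of females above that of males in 4 of 4 strains, by most in WSB (6.63 and 4.81 CPM). *Pcdhga11* was higher by 0.13 ± 0.03 (edgeR adjusted p = 0.00819), with a higher median in 3 of 4 strains and not in B6 (12.4 and 12.5 CPM). DESeq2 called 12 members for sex and edgeR without a count filter 6. Of the 5 lists and the gene models inside the cluster, 0 genes differed between the sexes by edgeR, against 1.77% of all genes. At an unadjusted p under 0.05 there were 1 regulator, 1 non-clustered protocadherin, 1 partner, 2 neighbors and 0 others. The number of all genes at that unadjusted p is not given here, so no conclusion is drawn from these counts. Of the cell type markers 1 of 5 astrocyte markers was lower in females.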

How the data were processed

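The gene counts were deposited by the authors, who trimmed reads with Trimmomatic, aligned them with STAR to mm10, with strain variants for CAST, WSB and PWK, and counted them with HTSeq. Their versions and the strand setting and overlap mode of the counting are not given in the sources used here. The authors name Ensembl Release 84 for their RSEM estimates and no release for the HTSeq counts, so lengths and overlaps, taken here from GENCODE M21, may differ from those of the release used. From the counts on, Python 3.11.15, R 4.3.3, edgeR 4.0.16 and DESeq2 1.42.0 were used. A gene was tested where no fewer than 10% of the 93 mice reached 10 counts. Counts were scaled by TMM, and CPM are counts per 1000000 of the TMM-scaled total. edgeR's quasi-likelihood test was fitted to 16 group means (strain, genotype and sex), with contrasts averaged over the sexes, and p-values were adjusted by Benjamini-Hochberg over 23702 genes with a threshold of 0.05. Standard errors and 95% intervals come from this model with 77 residual degrees of freedom.

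The members and lists were chosen with earlier results of these data known. Named genes were the C-type genes, the 4 smallest p over the 4 strains and the 2 highest mean CPM in each subcluster, up to 3 per subcluster with a WT log2 difference of 2 or more, the members called for the transgenes or else the 2 with the smallest p, up to 3 for sex, and those at the filter's edge. Other genes named from lists, and the 3 members not called over the 4 strains, were chosen after their values were seen. An item withheld for evaluation was left out of the lists.

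Alternatives were DESeq2's test, DESeq2's size factors, no count filter, library pool as a covariate, fits within pools, a replicate block, WT mice or 1 strain only, and leaving out each B6 *APP/PS1* female and each PWK WT female. Leaving out 3 B6 mice with low beta sums was added after seeing the data. Of 226 pairs of libraries, 0 had identical counts. Pools were inferred from consecutive library numbers. The code was tested on simulated data.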

Additional observations from a re-analysis of the deposited data

Results flagged for a closer look

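Within groups of 4 to 6 mice of 1 strain, genotype and sex, a mouse stood far from the others in 12 of 144 values tested, and chance flags about 1 in 20. The alpha and gamma sums hold the C-type genes that were also tested singly. The 144 values are thus not independent, and no conclusion is drawn from the share flagged. B6 WT male 5 was low in 5 of the 12 values. Its alpha sum was 58.05 CPM, its beta sum 150.6 CPM, its gamma sum 291.8 CPM, *Pcdhac2* 27.46 CPM and *Pcdhgc3* 26.9 CPM, each below every other B6 WT male. It also had the lowest sum of cerebellar markers of the B6 WT mice, 353.5 CPM, and the part of this in its values was not tested.

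The beta sum was also low in B6 *APP/PS1* female 2, with 154.9 CPM, and in B6 WT female 5, with 177.5 CPM. *Pcdhgc3* was high in PWK WT male 2, with 46.67 CPM, and low in WSB WT male 2, with 33.41 CPM. *Pcdhgc4* was low in PWK *APP/PS1* female 5, with 22.88 CPM. *Pcdhgc5* was low in CAST *APP/PS1* female 5, with 76.06 CPM, and in PWK *APP/PS1* female 3, with 72.98 CPM.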

How the results depend on the processing

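Over the alternatives other than leaving out single mice, members called numbered 45 to 47 for CAST and B6, 42 to 44 for WSB and B6, 44 to 48 for PWK and B6, 36 to 38 for CAST and PWK, 42 to 46 for WSB and PWK, and 42 to 43 for CAST and WSB. Over the 4 strains they numbered 54 to 55. For the transgenes they were 0 to 1 in PWK, and for sex 6 to 12. With a replicate block 47, 44, 46, 37, 45 and 43 members were called in the strain comparisons in the same order. Without 3 B6 mice with low beta sums, an alternative chosen after seeing the data, they were 46, 42, 48, 38, 46 and 43. Leaving out single mice gave 46 to 47, 44, 45 to 47, 35 to 38, 42 to 45 and 42 to 43 in that order. Over the 4 strains it gave 54 to 55, for the transgenes in PWK 0 to 1 and for sex 6 to 10. No WT mouse of B6, CAST or WSB was left out singly. The counts for CAST and B6, WSB and B6, and CAST and WSB thus cannot show how far they depend on single mice of these groups. In comparisons with PWK, only its WT females were left out. The sign of *Pcdha1* between CAST and PWK turned within library pool 1, at 0.0037, and the cause was not tested. All B6 libraries lie outside the 3 inferred pools, so the pool covariate cannot adjust a comparison with B6, and its counts there, which are within these ranges, say nothing about stability. What depth limits was not measured.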
